A study of Mus musculus with 12 samples.

Results

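The 44 genes described here encode the sarcomere and Z-disc of striated muscle, and they were picked by gene symbol from a table of 18996 mouse genes, in which all 44 were present and passed the filter on low counts (14765 genes did). The table came from bulk RNA sequencing of tissue from beside the spine of 12 mice, split equally into No operation, SHAM and Laminectomy groups of 4. By the general description of the animals, which is not specific to these 12, mice were BALB/c and 5 to 7 weeks old, and the labels give no sex. SHAM mice lost soft tissue beside the spine while their laminae stayed in place, and Laminectomy mice had the T12-L2 laminae excised. The tissue label of No operation samples is paraspinal soft tissue, and samples of both surgical groups are titled scar tissue, with paraspinal soft and scar tissue as their tissue label. Tissue was taken on day 7 after surgery, no mouse carried an engineered allele or received a drug as far as the labels state, and the labels do not give the share of muscle, fat and scar in each piece. In a bulk sample, fewer muscle cells and less RNA per muscle cell cannot be told apart.

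The sarcomere is the contractile unit of striated muscle. Thin filaments of actin, tropomyosin and troponin are anchored at the Z-disc by alpha-actinin, thick filaments of myosin are held in register at the M-band, and titin spans from one to the other. Most of its proteins exist as isoforms encoded by separate genes, some used by fast or slow adult fibres and some by the embryo, and fibres that regenerate after injury are known to pass through a stage in which embryonic isoforms are made again.

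The regions before the start sites of 4 genes are shown because these genes make up the contrast that recurs below. *Acta1* encodes the adult skeletal actin, *Actc1* the actin of heart and embryonic muscle, *Tnnt2* the troponin T of heart and embryonic muscle, and *Myl4* the essential myosin light chain of atrium and embryonic muscle. Sequences are the 250 bases before the RefSeq start site in build GRCm38.p6, written 5′ to 3′ on the gene's own strand, and capitals mark each CArG box (the site of serum response factor) or MCAT element (CATTCC on either strand, the site of TEAD factors).
Acta1, chr8:123894776-123895025, minus strand: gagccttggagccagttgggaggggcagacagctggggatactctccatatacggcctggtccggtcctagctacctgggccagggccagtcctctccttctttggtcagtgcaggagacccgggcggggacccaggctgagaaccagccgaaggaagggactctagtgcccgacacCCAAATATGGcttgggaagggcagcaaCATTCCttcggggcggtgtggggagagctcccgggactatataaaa
Actc1, chr2:114052876-114053125, minus strand: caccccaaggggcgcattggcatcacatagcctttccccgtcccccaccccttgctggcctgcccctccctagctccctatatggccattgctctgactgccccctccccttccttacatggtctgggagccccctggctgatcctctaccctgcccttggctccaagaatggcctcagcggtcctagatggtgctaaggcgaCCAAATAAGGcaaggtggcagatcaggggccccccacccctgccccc
Tnnt2, chr1:135836084-135836333, plus strand, the first of 2 listed starts: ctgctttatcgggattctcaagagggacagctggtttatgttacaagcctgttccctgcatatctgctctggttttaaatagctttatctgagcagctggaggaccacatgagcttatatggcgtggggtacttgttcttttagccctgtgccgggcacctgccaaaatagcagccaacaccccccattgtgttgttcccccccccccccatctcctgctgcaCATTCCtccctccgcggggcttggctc
Myl4, chr11:104550413-104550662, plus strand: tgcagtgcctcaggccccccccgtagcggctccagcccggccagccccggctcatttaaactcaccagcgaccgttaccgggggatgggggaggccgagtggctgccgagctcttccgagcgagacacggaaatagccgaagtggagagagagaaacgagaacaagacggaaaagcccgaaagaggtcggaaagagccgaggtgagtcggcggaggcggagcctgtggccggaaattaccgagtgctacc
The CArG box lay 73 bases before the start of *Acta1* and 47 before that of *Actc1*, and MCAT elements lay 46 bases before the start of *Acta1* and 27 before that of *Tnnt2*. Neither was found in the window of *Myl4*. The *Actc1* window lies inside the gene span given below, which is from another annotation (GENCODE), so it is not upstream of the start in that annotation. Of the 44 genes, 31 had a promoter in the table used, and 4 of these held a CArG box (*Acta1*, *Actc1*, *Myom1* and *Ldb3*), compared with 1.62% of all 27025 genes with a promoter there. MCAT elements were present in 8 of the 31, against 14.4% of all genes, and E-boxes (CANNTG, the site of the myogenic factors) in 28 of the 31, against 69.3%. None of these motifs overlapped in the windows shown. A match describes letters and not binding.

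Most sarcomere genes were far lower after either operation, while *Tnnt2* and *Myl4* were higher. In SHAM mice, 39 of the 44 genes fell against No operation mice and 2 rose, when 25.1% of all genes tested were called lower and 25.7% higher. In Laminectomy mice, 38 fell and 2 rose, against 24.4% and 24.2% of all genes. A gene was called at a Benjamini-Hochberg adjusted p below 0.05 over all 14765 genes and an absolute log2 fold change above 0.5, by edgeR's quasi-likelihood test on the counts of all 12 mice. The median log2 fold change of the 44 genes was -3.29 in SHAM and -2.68 in Laminectomy mice, compared with -0.00195 and 0.00927 over all genes tested. At -3 or below on the log2 scale, which is a fall of 8 times or more, were 27 of the 44 genes in SHAM and 19 in Laminectomy mice. All 4 SHAM mice lay below every No operation mouse for 38 of the 44 genes, as they did for 27.8% of all genes tested, and none of the 44 had all SHAM mice above (26.7% of all genes). For Laminectomy mice, 36 genes lay wholly below and 2 wholly above, against 29% and 27% of all genes. Both comparisons use the same 4 No operation mice, so they are not independent of each other. These directions depend on the scale: with library sizes set by 15 other muscle genes, 30 of the 44 log2 fold changes were above 0 in SHAM and 34 in Laminectomy mice (38 and 36 without *Ldha*, 1 of the 15 genes), as described further below.

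Between Laminectomy and SHAM mice none of the 44 genes was called, and 0% of all genes tested were called in either direction. The mice of both groups overlapped for all 44 genes, whereas 5.05% of all genes tested lay wholly higher in Laminectomy mice and 5.07% wholly lower. No member had an unadjusted p below 0.05 by edgeR, DESeq2 called none of the 43 it tested (4.35% of all 15997 genes it tested were called), and the smallest adjusted p was 0.484. Of the 44 log2 fold changes, 43 were above 0, with a median of 0.55 against 0.00372 over all genes, and with the muscle scale 31 were above 0. Leaving out SHAM 1 brought this median to 0.26, and leaving out SHAM 4 raised it to 0.80. Without Laminectomy 1, 8 of the 44 had an unadjusted p below 0.05 and none was called.

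**Figure D1:**
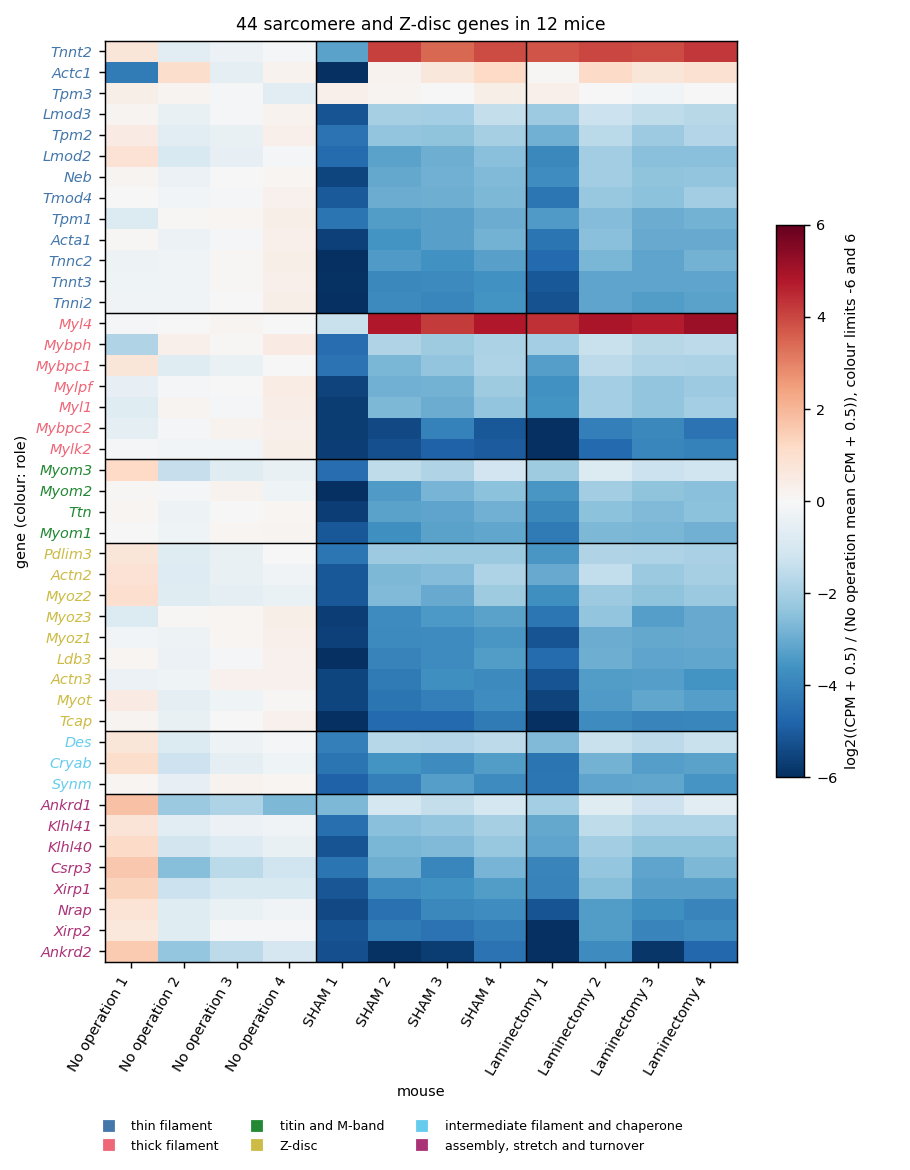
Each row is a gene and each column a mouse. Colour gives log2 of CPM (counts per 1000000 of the effective library size) plus 0.5, relative to the No operation mean, from blue (lower) to red (higher), with gene names coloured by role. Most rows are blue in all 8 mice of the surgical groups, *Tnnt2* and *Myl4* are red in 7 of them, and SHAM 1 is the darkest blue column, on a scale that the muscle-based library sizes would shift.

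Counts per mouse totalled between 16802989 and 18077868, so depth was nearly equal. The 44 genes took between 8.11% and 10.6% of all counts in No operation mice, 0.316%, 1.25%, 1.3% and 1.67% in the 4 SHAM mice, and 0.762%, 2.15%, 1.78% and 1.95% in the 4 Laminectomy mice. SHAM 1 was the lowest of its group for 42 of the 44 genes and Laminectomy 1 for 43. In SHAM 1, 12 genes of regenerating muscle (*Myog*, *Mymk*, *Myh3* and others) summed to 52.8 CPM, compared with 1480 to 2430 CPM in the other SHAM mice, 1630 to 2510 CPM in Laminectomy and 153 to 237 CPM in No operation mice. No operation 1 was the highest of its group for 22 of the 44 genes. The summed level of 8 fibroblast genes was 8520 to 27800 CPM in No operation, 58500 to 79100 in SHAM and 54600 to 67900 in Laminectomy mice, and 7 macrophage genes summed to 669 to 1790, 4480 to 7670 and 3310 to 5320 CPM. Of the 8 fibroblast genes 6 were called higher and 1, *Dcn*, lower in each surgical group, and of the 7 macrophage genes 7 were higher in SHAM and 6 in Laminectomy mice, beside 25.7% and 24.2% of all genes higher and 25.1% and 24.4% lower. Adipocyte genes (5) summed to 1150 to 2180, 249 to 1300 and 72.5 to 401 CPM, with 3 lower in SHAM and all 5 in Laminectomy mice, and endothelial genes (5) to 576 to 740, 455 to 634 and 439 to 678 CPM, with 1 lower in each. Neutrophil genes (6) summed to 14.5 to 1770, 411 to 1160 and 453 to 1800 CPM, with 1 higher in SHAM mice. Cartilage genes (6) summed to 151 to 514, 14 to 213 and 288 to 1330 CPM, with 1 higher and 1 lower in SHAM and 2 higher in Laminectomy mice. Their part in the fall of the sarcomere genes was not tested.

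Identifiers below are those of the table, positions are in build GRCm38, and the 4 values of a group are in the order of its mice 1 to 4. Among the 13 thin filament genes, 10 fell in each surgical group and *Tnnt2* rose. Of all genes, 25.1% and 24.4% were lower in SHAM and Laminectomy mice, and 25.7% and 24.2% higher. On the scale of the 15 muscle genes 5 of the 13 were higher and none lower in either group. That scale called 96.5% (SHAM) and 95.8% (Laminectomy) of all genes higher and 0.21% and 0.278% lower. These shares follow from the choice of the 15 genes, so the members' lower share of higher calls is no separate result. *Acta1* (identifier 11459, chromosome 8, 123891769 to 123894751), the most abundant of the 44 genes, was at 23089, 17285, 20473 and 27815 CPM without operation, at 463, 1849, 2311 and 3119 CPM after SHAM surgery and at 1053, 3887, 2769 and 2758 CPM after laminectomy. All 8 mice that had surgery lay below every No operation mouse, and SHAM 1 and Laminectomy 1 were the lowest of their groups. *Acta1* fell by 3.52 on the log2 scale after SHAM surgery (adjusted p = 0.000237, standard error 0.556) and fell by 3.08 after laminectomy (adjusted p = 0.000583, standard error 0.545). This is 11.5-fold and 8.47-fold. Per kilobase of its longest transcript, *Acta1* led all 44 genes in every group, with means of 15300, 1340 and 1810 CPM in No operation, SHAM and Laminectomy mice.

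*Actc1* (identifier 11464, chromosome 2, 114047282 to 114053548) was at 13.5, 533, 176 and 301 CPM without operation, at 0.562, 300.2, 414 and 588 CPM after SHAM surgery and at 265, 566, 419.5 and 487 CPM after laminectomy. No operation 1 and SHAM 1 stood far below the other mice, and the groups overlapped. The gene did not pass the test in either group, with log2 fold changes of 0.35 in SHAM mice (adjusted p = 0.813, standard error 1.18) and 0.76 in Laminectomy mice (adjusted p = 0.602, standard error 1.19). Without SHAM 1 the first was 0.75 (standard error 0.782, adjusted p = 0.427), and without No operation 1 it was -0.05 (standard error 1.13, adjusted p = 0.974). The second was 0.37 without No operation 1 (adjusted p = 0.802) and 1.41 without No operation 2 (adjusted p = 0.383). *Actc1* and *Acta1* encode closely related actins, and the number of reads that match both genes was not measured here.

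The troponin T genes moved in opposite directions. *Tnnt3* (identifier 21957, chromosome 7, 142498836 to 142516009), the fast skeletal form, was at 8849, 9301, 11081 and 13308 CPM without operation, at 175, 737, 741 and 849 CPM after SHAM surgery and at 317, 1194, 1188 and 1179 CPM after laminectomy. The lowest No operation mouse was above every mouse of both surgical groups. *Tnnt3* fell by 4.09 on the log2 scale after SHAM surgery (adjusted p = 7.4e-05, standard error 0.546) and fell by 3.46 after laminectomy (adjusted p = 0.000226, standard error 0.53). *Tnnt2* (identifier 21956, chromosome 1, 135836354 to 135852260) was at 12.3, 4.41, 5.73 and 7.01 CPM without operation, at 0.337, 135, 84.1 and 117 CPM after SHAM surgery and at 107, 125, 117 and 146 CPM after laminectomy. Of the 8 mice that had surgery, 7 were above all No operation mice, whereas SHAM 1 was below them, at 6 reads. *Tnnt2* rose by 3.52 on the log2 scale in SHAM mice (adjusted p = 0.00835, standard error 0.974) and by 4.07 in Laminectomy mice (adjusted p = 0.00432, standard error 0.996). Without SHAM 1 the rise in SHAM mice was 3.93 (standard error 0.304, adjusted p = 1.13e-05). *Tnnt2* is also a heart gene, and the source of its reads was not tested. Of 8 listed heart genes, *Nppa* and *Nppb* did not exceed 0.16 CPM in any mouse, and *Myl7* had a count in 1 mouse. The whole list of 8 heart genes, which includes *Sln* of slow skeletal fibres, summed to 12.9 to 27.1 CPM in No operation, 6.29 to 65.7 CPM in SHAM and 28.1 to 90.6 CPM in Laminectomy mice, with SHAM 1 the lowest. Of the 3 that passed the filter, *Tnni3* was higher and *Myh6* lower in both surgical groups, and *Sln* was higher in Laminectomy mice.

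*Tnni2* (identifier 21953, chromosome 7, 142441808 to 142444410), the fast inhibitory troponin, had the largest fall of the thin filament genes, from 2500, 2481, 2981 and 3700 CPM in No operation mice to 41.1, 206, 194 and 242 in SHAM and 78.5, 329.7, 288 and 316 in Laminectomy mice. The groups did not overlap. *Tnni2* fell by 4.09 on the log2 scale after SHAM surgery (adjusted p = 0.000102, standard error 0.573) and fell by 3.53 after laminectomy (adjusted p = 0.000279, standard error 0.558). *Tpm1* (identifier 22003, chromosome 9, 67022590 to 67049406), the striated muscle tropomyosin with the highest level here, was at 4728, 8929, 9277 and 10981 CPM without operation, at 402, 818, 899.7 and 1076 CPM after SHAM surgery and at 805, 1378, 1079 and 1184 CPM after laminectomy. Its SHAM 1 value was the lowest of all 12, and no mouse of the surgical groups reached a No operation value. *Tpm1* fell by 3.41 on the log2 scale after SHAM surgery (adjusted p = 1.76e-05, standard error 0.357) and fell by 2.93 after laminectomy (adjusted p = 4.8e-05, standard error 0.349). *Tpm3*, a tropomyosin of slow fibres whose other transcripts serve the cytoskeleton of most cells, is given because it is 1 of 3 genes not called in SHAM mice, and was chosen after its values were seen. It was at 566, 493, 402 and 284 CPM without operation, at 536, 491, 426 and 555 CPM after SHAM surgery and at 542, 425, 393 and 435 CPM after laminectomy. The groups overlapped, SHAM 1 was not low, and the log2 fold changes were 0.20 (adjusted p = 0.387, standard error 0.196) and 0.04 (adjusted p = 0.871, standard error 0.196). The other 6 thin filament genes were the fast troponin C *Tnnc2*, *Tpm2*, nebulin (*Neb*), which sets filament length, and the filament-end proteins *Tmod4*, *Lmod2* and *Lmod3*, all lower, with log2 fold changes from -3.79 to -2.17 in SHAM and from -3.19 to -1.63 in Laminectomy mice. Exons of *Ube2c* on the opposite strand overlap *Tnnc2*.

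**Figure D2:**
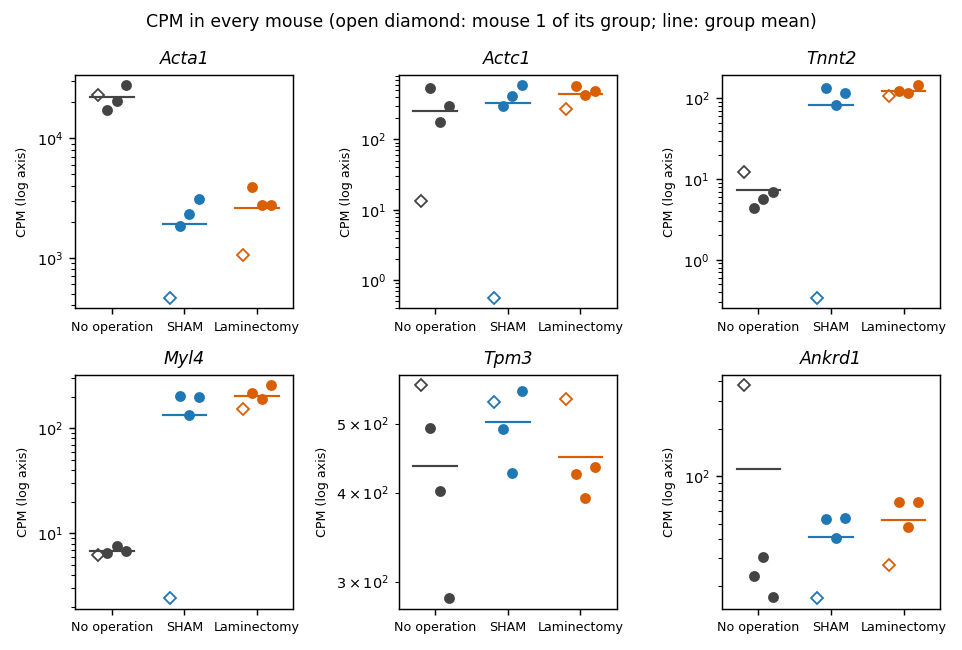
CPM of 6 genes on a log axis in each of 12 mice, with an open diamond for mouse 1 of each group and a line at the group mean. *Acta1* is lower in all mice of the surgical groups, *Tnnt2* and *Myl4* are higher in 7 of 8, *Tpm3* overlaps between groups, SHAM 1 and No operation 1 are low for *Actc1*, and No operation 1 is high for *Ankrd1*. Directions hold for TMM-scaled CPM, and on the muscle scale *Acta1* is above No operation, by 0.33 and 0.35, or by 0.65 and 0.59 without *Ldha*, and is not called.

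Of the 7 thick filament genes, 6 fell in both groups (25.1% and 24.4% of all genes) and *Myl4* rose (25.7% and 24.2%). On the muscle scale 3 were higher and 1 lower in SHAM (96.5% and 0.21% of all genes), and 5 higher and 2 lower in Laminectomy mice (95.8% and 0.278%). *Mylpf* (identifier 17907, chromosome 7, 127208890 to 127214298), the regulatory light chain of fast fibres and the one with the highest mean level over all 12 mice (*Myl1* was higher in Laminectomy mice), was at 3242, 4333, 4630 and 6245 CPM without operation, at 96.3, 628, 653 and 1054 CPM after SHAM surgery and at 369, 1129, 905 and 1027 CPM after laminectomy. SHAM 1 and Laminectomy 1 were again the lowest, and the groups did not overlap. *Mylpf* fell by 2.92 on the log2 scale after SHAM surgery (adjusted p = 0.00128, standard error 0.594) and fell by 2.43 after laminectomy (adjusted p = 0.00385, standard error 0.582). *Myl1* (identifier 17901, chromosome 1, 66924295 to 66945404), the essential light chain of fast fibres, was at 2786, 5207, 4355 and 6027 CPM without operation, at 89.2, 716, 574 and 889 CPM after SHAM surgery and at 379.5, 1126, 894 and 1129 CPM after laminectomy. Each surgical mouse was below every No operation mouse. *Myl1* fell by 3.02 on the log2 scale after SHAM surgery (adjusted p = 0.00111, standard error 0.6) and fell by 2.38 after laminectomy (adjusted p = 0.00443, standard error 0.585).

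*Myl4* (identifier 17896, chromosome 11, 104550663 to 104595753) was at 6.2, 6.55, 7.53 and 6.8 CPM without operation, at 2.42, 201, 133 and 199.8 CPM after SHAM surgery and at 152, 216, 190.5 and 255 CPM after laminectomy. The 4 No operation mice were nearly equal, 7 of the 8 mice that had surgery were at least 17.7 times above the highest of them, and SHAM 1 was below them. *Myl4* rose by 4.31 in SHAM mice (adjusted p = 0.00133, standard error 0.88) and by 4.91 in Laminectomy mice (adjusted p = 0.000748, standard error 0.904), on the log2 scale. Leaving out SHAM 1 gave 4.71 (standard error 0.208, adjusted p = 1.83e-06) for SHAM mice. A noncoding transcript on the opposite strand overlaps exons of *Myl4*.

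Both myosin binding protein C genes fell, by different amounts. *Mybpc2* (identifier 233199, chromosome 7, 44501699 to 44524656), the fast form, was at 2330, 3363, 4022 and 4320 CPM without operation, at 67.3, 82, 211 and 102 CPM after SHAM surgery and at 18.4, 201, 240.5 and 161 CPM after laminectomy. Laminectomy 1 was the lowest of all mice, and the groups did not overlap. *Mybpc2* fell by 4.92 on the log2 scale after SHAM surgery (adjusted p = 0.000115, standard error 0.701) and fell by 4.50 after laminectomy (adjusted p = 0.000219, standard error 0.687). *Mybpc1* (identifier 109272, chromosome 10, 88518279 to 88605152), the slow form, was at 3357, 1227, 1559 and 1971 CPM without operation, at 93.4, 305, 388 and 559 CPM after SHAM surgery and at 206, 679.7, 563 and 537 CPM after laminectomy. Groups were again apart, with No operation 1 the highest mouse. *Mybpc1* fell by 2.59 on the log2 scale after SHAM surgery (adjusted p = 0.00146, standard error 0.538) and fell by 2.03 after laminectomy (adjusted p = 0.00607, standard error 0.526). The difference between their falls was not tested, and noncoding transcripts on the opposite strand overlap exons of both. *Mylk2* (identifier 228785, chromosome 2, 152911352 to 152923068), the kinase of skeletal myosin light chains, was at 1318, 1260, 1240 and 1828 CPM without operation, at 28, 36.6, 47.9 and 44 CPM after SHAM surgery and at 12, 55.4, 91.8 and 84.1 CPM after laminectomy. Its No operation values were far above all others, and No operation 4 stood above the rest of its group. *Mylk2* fell by 5.17 on the log2 scale after SHAM surgery (adjusted p = 1.73e-05, standard error 0.54) and fell by 4.54 after laminectomy (adjusted p = 3.94e-05, standard error 0.524). *Mylk2* had the largest fall of this group in both comparisons. On the muscle scale it was lower by 1.12 in SHAM mice and by 1.18 in Laminectomy mice (adjusted p = 0.0228 and 0.0171), but without *Ldha* among the 15 genes it was not called, at -0.63 and -0.99 (adjusted p = 0.357 and 0.152). The remaining gene, *Mybph*, which encodes a small relative of myosin binding protein C, fell in both groups.

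The genes of titin and the M-band fell together, except that *Myom3* was not called in Laminectomy mice (25.1% and 24.4% of all genes fell). On the muscle scale 1 of the 4, *Myom3*, was higher in each group (96.5% and 95.8% of all genes). *Ttn* (identifier 22138, chromosome 2, 76703980 to 76982547), which encodes the giant spring protein, was at 5552, 4065, 5028 and 5526 CPM without operation, at 98.6, 552, 570.3 and 688 CPM after SHAM surgery and at 344, 912, 812 and 904 CPM after laminectomy. Surgical and No operation mice did not overlap. *Ttn* fell by 3.40 on the log2 scale after SHAM surgery (adjusted p = 0.000199, standard error 0.524) and fell by 2.76 after laminectomy (adjusted p = 0.000756, standard error 0.51). *Myom1* (identifier 17929, chromosome 17, 71002633 to 71126856), the main M-band crosslinker, was at 1201, 1017, 1313 and 1377 CPM without operation, at 35.7, 96.7, 132 and 142 CPM after SHAM surgery and at 64.6, 189, 185 and 165 CPM after laminectomy. All surgical values were below the lowest No operation value. *Myom1* fell by 3.60 on the log2 scale after SHAM surgery (adjusted p = 4.45e-05, standard error 0.442) and fell by 3.03 after laminectomy (adjusted p = 0.000142, standard error 0.431). Exons of *Myl12a*, a light chain gene of non-muscle cells on the opposite strand, overlap *Myom1*, and an antisense gene overlaps *Ttn*. *Myom3* (identifier 242702, chromosome 4, 135759715 to 135815564), the form of slow and intermediate fibres, was at 437, 73.6, 118 and 142 CPM without operation, at 7.75, 65.8, 55.4 and 86.7 CPM after SHAM surgery and at 43.5, 109, 77.8 and 85.1 CPM after laminectomy. No operation 1 was far above the other 11 mice, and the groups overlapped. *Myom3* fell by 1.84 in SHAM mice (adjusted p = 0.0329, standard error 0.674), and its log2 fold change in Laminectomy mice was -1.29 (adjusted p = 0.113, standard error 0.664). Without No operation 1 it passed in neither, at -1.05 (adjusted p = 0.147) and -0.50 (adjusted p = 0.49), and without SHAM 2 or SHAM 3 it missed the threshold in SHAM mice (adjusted p = 0.0541 and 0.0633). Without SHAM 1 it was called in both, at -1.47 (adjusted p = 0.0391) and -1.27 (adjusted p = 0.0437).

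All 9 Z-disc genes fell in both groups without overlap between mice, as 27.8% and 29% of all genes did in SHAM and Laminectomy mice, and on the muscle scale 2 were higher and none lower in either, where 96.5% and 95.8% of all genes were higher. *Actn3* (identifier 11474, chromosome 19, 4861216 to 4877909), the alpha-actinin of fast fibres, was at 4506, 4894, 6820 and 6849 CPM without operation, at 126, 305, 456 and 412 CPM after SHAM surgery and at 158, 559.6, 592 and 479 CPM after laminectomy. *Actn3* fell by 4.15 on the log2 scale after SHAM surgery (adjusted p = 3.54e-05, standard error 0.491) and fell by 3.69 after laminectomy (adjusted p = 8.24e-05, standard error 0.48). *Actn2* (identifier 11472, chromosome 13, 12269426 to 12340760), the alpha-actinin of all striated fibres and of heart, was at 1874, 594, 738 and 871 CPM without operation, at 29.1, 158, 167 and 285 CPM after SHAM surgery and at 126, 362, 219 and 256 CPM after laminectomy, with No operation 1 at 2.15 times the next mouse. *Actn2* fell by 2.67 on the log2 scale after SHAM surgery (adjusted p = 0.0026, standard error 0.607) and fell by 2.08 after laminectomy (adjusted p = 0.0102, standard error 0.593). Its fall was the smallest of the 9 in Laminectomy mice, and that of *Pdlim3* (identifier 53318, chromosome 8, 45885461 to 45919548), a PDZ and LIM protein that binds alpha-actinin, was the smallest in SHAM mice. *Pdlim3* was at 1030, 379, 453 and 645 CPM without operation, at 30.6, 137, 135 and 134 CPM after SHAM surgery and at 55.4, 181, 172 and 164 CPM after laminectomy. The last 3 SHAM mice differed little, and SHAM 1 was much lower. *Pdlim3* fell by 2.52 on the log2 scale after SHAM surgery (adjusted p = 0.00143, standard error 0.521) and fell by 2.13 after laminectomy (adjusted p = 0.00397, standard error 0.514).

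*Tcap* (identifier 21393, chromosome 11, 98383811 to 98384953), the titin cap telethonin, had the largest fall of the Z-disc genes and was at 1847, 1214, 1631 and 1998 CPM without operation, at 25.1, 65.8, 66.1 and 87.3 CPM after SHAM surgery and at 18.6, 123, 105 and 111 CPM after laminectomy. Laminectomy 1 and SHAM 1 were lowest, and the lowest No operation value was 9.87 times the highest value after surgery. *Tcap* fell by 4.77 on the log2 scale after SHAM surgery (adjusted p = 4e-05, standard error 0.578) and fell by 4.22 after laminectomy (adjusted p = 9.43e-05, standard error 0.562). *Myot* (identifier 58916, chromosome 18, 44334074 to 44355724), or myotilin, which crosslinks actin, was at 1797, 888, 1061 and 1361 CPM without operation, at 27.8, 60.1, 73.6 and 95.2 CPM after SHAM surgery and at 26.6, 121, 146 and 129 CPM after laminectomy. *Myot* fell by 4.31 on the log2 scale after SHAM surgery (adjusted p = 5.31e-05, standard error 0.546) and fell by 3.59 after laminectomy (adjusted p = 0.000172, standard error 0.528). *Ldb3* (identifier 24131, chromosome 14, 34526603 to 34588682), the PDZ and LIM protein ZASP, was at 2060, 1476, 1698 and 2250 CPM without operation, at 27.4, 117, 137 and 185 CPM after SHAM surgery and at 74.6, 245, 211 and 217 CPM after laminectomy. Both were apart from No operation in every mouse. *Ldb3* fell by 4.00 on the log2 scale after SHAM surgery (adjusted p = 8.39e-05, standard error 0.545) and fell by 3.32 after laminectomy (adjusted p = 0.000286, standard error 0.528).

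The calsarcins tether calcineurin to the Z-disc. *Myoz1* (identifier 59011, chromosome 14, 20649107 to 20656540), the fast form, was at 1173, 1045, 1391 and 1594 CPM without operation, at 26.3, 90.6, 96.2 and 115 CPM after SHAM surgery and at 36, 166, 156 and 158 CPM after laminectomy. *Myoz1* fell by 3.99 on the log2 scale after SHAM surgery (adjusted p = 7.76e-05, standard error 0.537) and fell by 3.33 after laminectomy (adjusted p = 0.000256, standard error 0.52). *Myoz2* (identifier 59006, chromosome 3, 123006206 to 123035015), the form of slow fibres and heart, was at 389, 117, 132 and 147 CPM without operation, at 5.28, 31.1, 23.5 and 43.8 CPM after SHAM surgery and at 15, 42.8, 35.9 and 42.2 CPM after laminectomy, again with No operation 1 far above its group. *Myoz2* fell by 2.92 on the log2 scale after SHAM surgery (adjusted p = 0.0015, standard error 0.608) and fell by 2.53 after laminectomy (adjusted p = 0.00352, standard error 0.598). *Myoz3* (identifier 170947, chromosome 18, 60573750 to 60591788) was the least abundant Z-disc gene, at 52.4, 98.6, 102 and 119 CPM without operation, at 1.35, 6.26, 8.05 and 9.61 CPM after SHAM surgery and at 4.18, 17.9, 8.86 and 11.1 CPM after laminectomy. Here No operation 1 was the lowest of its group. *Myoz3* fell by 3.88 on the log2 scale after SHAM surgery (adjusted p = 0.000129, standard error 0.561) and fell by 3.14 after laminectomy (adjusted p = 0.000477, standard error 0.539).

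*Myot*, *Tpm1*, *Myom1*, *Ldb3* and *Myoz3* had the smallest unadjusted p-values between Laminectomy and SHAM mice among the 44 genes. Their log2 fold changes were 0.72, 0.48, 0.57, 0.68 and 0.73, with standard errors of 0.481, 0.326, 0.401, 0.485 and 0.522. The unadjusted p ran from 0.161 to 0.187, and the adjusted p from 0.484 to 0.517. Values of both groups overlapped for each of the 5 genes.

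**Figure D3:**
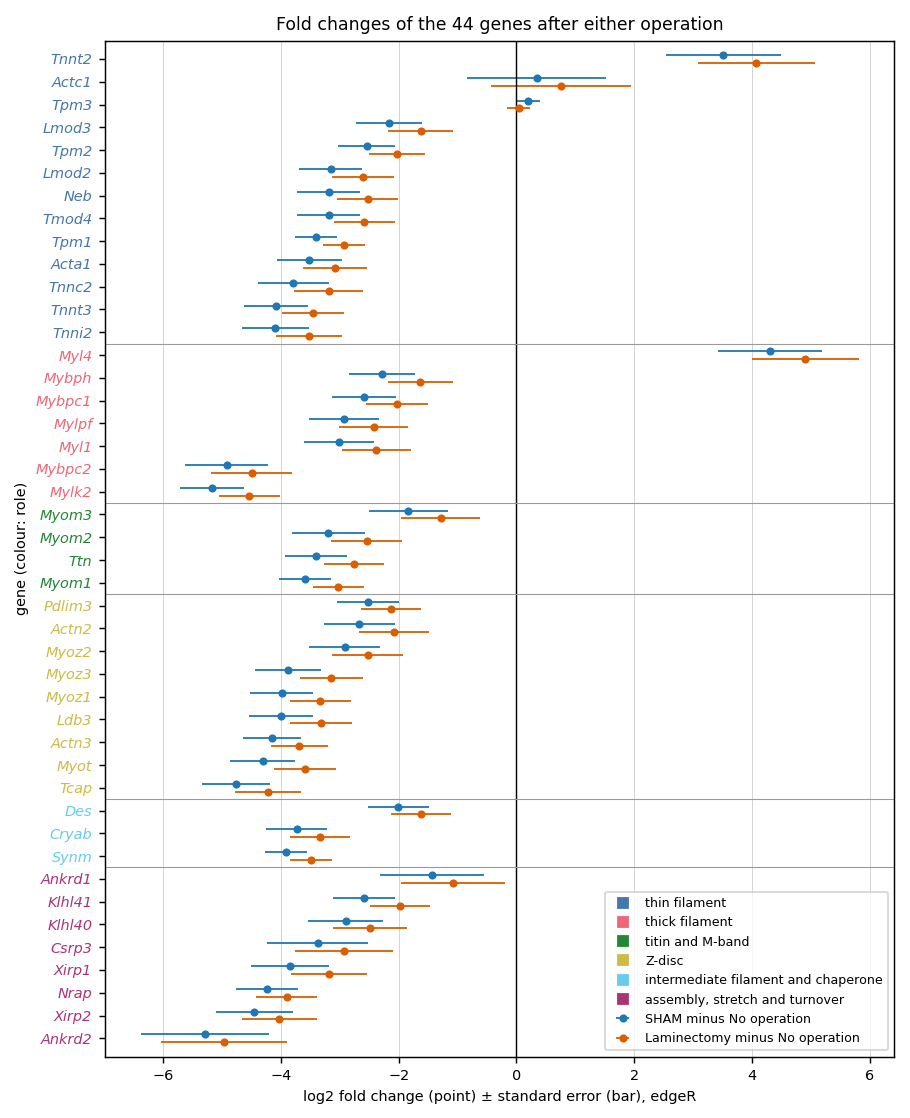
Points are log2 fold changes against No operation mice, SHAM in blue and Laminectomy in orange, and bars are standard errors from the edgeR fit, with genes grouped by role. All genes but *Tnnt2*, *Myl4*, *Actc1* and *Tpm3* lie left of 0, from -1.08 to -5.29, although 30 and 34 of the 44 lie right of 0 once library sizes come from other muscle genes. Both sets of points share the same No operation mice.

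The 3 genes of the intermediate filaments and their chaperone fell in both groups, as 25.1% and 24.4% of all genes did. On the muscle scale *Des* was higher, as 96.5% and 95.8% of all genes were, and the other 2 were not called. *Des* (identifier 13346, chromosome 1, 75360329 to 75368579), or desmin, the filament that links neighbouring myofibrils, was at 4667, 1598, 2291 and 2632 CPM without operation, at 162, 866, 816 and 936 CPM after SHAM surgery and at 447, 1123, 946 and 1116 CPM after laminectomy. It had the smallest fall of the 3, and SHAM 1 was well below its group. *Des* fell by 2.01 on the log2 scale after SHAM surgery (adjusted p = 0.00568, standard error 0.52) and fell by 1.62 after laminectomy (adjusted p = 0.0173, standard error 0.513). Without No operation 1 it was not called in Laminectomy mice, at -1.26 (adjusted p = 0.0542). *Synm* (identifier 233335, chromosome 7, 67730160 to 67759742), encoding synemin, was at 675, 442, 729 and 679 CPM without operation, at 21.5, 36.5, 62.8 and 46.3 CPM after SHAM surgery and at 31.3, 69.7, 71.4 and 53.2 CPM after laminectomy. The groups did not overlap. *Synm* fell by 3.92 on the log2 scale after SHAM surgery (adjusted p = 8.91e-06, standard error 0.364) and fell by 3.48 after laminectomy (adjusted p = 1.96e-05, standard error 0.357). These were the smallest adjusted p-values of all 44 genes. *Cryab*, the small heat shock protein that protects desmin, was the other member. Desmin and synemin are also made in smooth muscle, and 8 smooth muscle genes summed to 545 to 895 CPM in No operation, 868 to 1380 CPM in SHAM and 1040 to 1450 CPM in Laminectomy mice. Of these 8, *Acta2* and *Cald1* were higher in both groups and *Cnn1* in Laminectomy mice, while *Myh11*, *Mylk* and *Lmod1* were lower in both. Among all genes, 25.7% and 24.2% were higher and 25.1% and 24.4% lower in SHAM and Laminectomy mice. Exons of *Ttc23* overlap *Synm*, those of *Hspb2* overlap *Cryab*, and an antisense gene overlaps *Des*.

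Of the 8 genes for assembly, stretch signalling and turnover, 7 fell in both groups and *Ankrd1* was not called. The shares of all genes called lower were 25.1% and 24.4% in SHAM and Laminectomy mice. On the muscle scale 2 of the 8 were higher and 1 lower in each group, where 96.5% and 95.8% of all genes were higher and 0.21% and 0.278% lower. *Nrap* (identifier 18175, chromosome 19, 56320035 to 56390037), an actin-binding scaffold of growing myofibrils, was at 3173, 1091, 1348 and 1568 CPM without operation, at 41.7, 81, 124 and 134 CPM after SHAM surgery and at 48.8, 175, 142 and 115 CPM after laminectomy. No operation 1 was the highest mouse, and groups did not overlap. *Nrap* fell by 4.23 on the log2 scale after SHAM surgery (adjusted p = 4.69e-05, standard error 0.525) and fell by 3.90 after laminectomy (adjusted p = 9.15e-05, standard error 0.517). Exons of *Habp2* and an antisense gene overlap *Nrap*.

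The stretch-responsive ankyrin repeat genes differed. *Ankrd2* (identifier 56642, chromosome 19, 42036000 to 42045110), found mainly in slow fibres, was at 969.7, 65.4, 108 and 159.9 CPM without operation, at 7.87, 4.87, 5.72 and 14.8 CPM after SHAM surgery and at 0.953, 23.4, 5.13 and 12 CPM after laminectomy. Its No operation values spanned 14.8 times, and all were above every surgical mouse. *Ankrd2* fell by 5.29 on the log2 scale after SHAM surgery (adjusted p = 0.00139, standard error 1.09) and fell by 4.97 after laminectomy (adjusted p = 0.00202, standard error 1.07). Without No operation 1 the falls were 3.74 and 3.42 (adjusted p = 0.00206 and 0.00347), so the direction did not rest on that mouse. *Ankrd1* (identifier 107765, chromosome 19, 36111961 to 36120099), a nuclear and I-band protein raised in stressed muscle, was at 376, 23.2, 30.5 and 17 CPM without operation, at 16.8, 53.4, 40.6 and 53.9 CPM after SHAM surgery and at 27.2, 68.1, 47.5 and 68.7 CPM after laminectomy. No operation 1 was at 5.47 times the next of the 12 mice. The log2 fold changes were -1.44 (adjusted p = 0.177, standard error 0.885) and -1.08 (adjusted p = 0.308, standard error 0.876), and without No operation 1 they turned to 0.80 (adjusted p = 0.121) and 1.16 (adjusted p = 0.0367), the latter a call in the opposite direction. No operation 1 was the highest of all 12 mice for all 8 genes of this role, from 1.64 times the next mouse for *Xirp2* to 6.06 times for *Ankrd2* and 7.01 times for *Csrp3*.

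Pairs of genes that encode alternative forms of one protein were set against each other in every mouse, as the share of the first in the sum of both after dividing counts by transcript length. The shares are a description with no test, and the 95% Clopper-Pearson intervals given for SHAM 1 cover counting error only. *Actc1* made up 0.0574%, 2.94%, 0.839% and 1.05% (mean 1.22% ± 1.22, SD, n = 4) of the actin pair in No operation mice, 0.119%, 13.7%, 14.9% and 15.6% (mean 11.1% ± 7.36, SD, n = 4) in SHAM and 19.8%, 12.5%, 12.9% and 14.8% (mean 15% ± 3.36, SD, n = 4) in Laminectomy mice. Every surgical mouse but SHAM 1 (interval 0.057% to 0.219%) was above every No operation mouse. The *Tnnt2* share of the troponin T pair was 0.0452%, 0.0154%, 0.0167% and 0.0171% (mean 0.0236% ± 0.0144, SD, n = 4) in No operation mice, 0.0625%, 5.61%, 3.55% and 4.27% (mean 3.37% ± 2.37, SD, n = 4) in SHAM and 9.9%, 3.29%, 3.1% and 3.86% (mean 5.04% ± 3.26, SD, n = 4) in Laminectomy mice. Here all surgical mice were above the No operation mice, SHAM 1 by the least (interval 0.0229% to 0.136%, which reaches the No operation values). *Myl4* accounted for 0.0736%, 0.0416%, 0.0571% and 0.0373% (mean 0.0524% ± 0.0165, SD, n = 4) of the essential light chain pair in No operation mice, 0.888%, 8.51%, 7.11% and 6.91% (mean 5.85% ± 3.39, SD, n = 4) in SHAM and 11.7%, 5.97%, 6.58% and 6.96% (mean 7.8% ± 2.63, SD, n = 4) in Laminectomy mice. SHAM 1 (interval 0.641% to 1.2%) was 12.1 times the highest No operation mouse and far below the other surgical mice. Laminectomy 1, the mouse with the least muscle RNA of its group, had the highest share of its group in all 6 pairs.

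The other 3 pairs set a form of slow fibres or of all fibres against a fast form. *Actn2* took 28.5%, 10.4%, 9.4% and 10.9% (mean 14.8% ± 9.15, SD, n = 4) of the alpha-actinin pair in No operation mice, 18.1%, 33.2%, 26% and 39.9% (mean 29.3% ± 9.37, SD, n = 4) in SHAM and 43.3%, 38.3%, 26.2% and 33.9% (mean 35.4% ± 7.25, SD, n = 4) in Laminectomy mice. The *Mybpc1* share of the myosin binding protein C pair was 57%, 25.1%, 26.3% and 29.6% (mean 34.5% ± 15.1, SD, n = 4), 56.1%, 77.4%, 62.8% and 83.5% (mean 70% ± 12.7, SD, n = 4) and 91.2%, 75.7%, 68.3% and 75.5% (mean 77.7% ± 9.65, SD, n = 4) in the same order. *Myoz2* made up 15.1%, 5.66%, 4.84% and 4.68% (mean 7.56% ± 5.01, SD, n = 4), 9.69%, 15.5%, 11.5% and 16.9% (mean 13.4% ± 3.37, SD, n = 4) and 18.2%, 12.1%, 10.9% and 12.5% (mean 13.4% ± 3.27, SD, n = 4) of the calsarcin pair. In each of these pairs No operation 1 lay inside the range of the surgical mice, and the other 3 No operation mice lay below all 8 of them. For SHAM 1 the intervals were 16.7% to 19.6%, 54.2% to 57.9% and 7.84% to 11.8%. Transcript length moved the level of 3 shares but not the order of their group means: with the principal transcript in place of the longest, the means for *Tnnt2* were 0.061%, 8.14% and 11.8%, for *Myl4* 0.135%, 13.5% and 17.7%, and for *Myoz2* 14%, 23.9% and 23.9%.

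**Figure D4:**
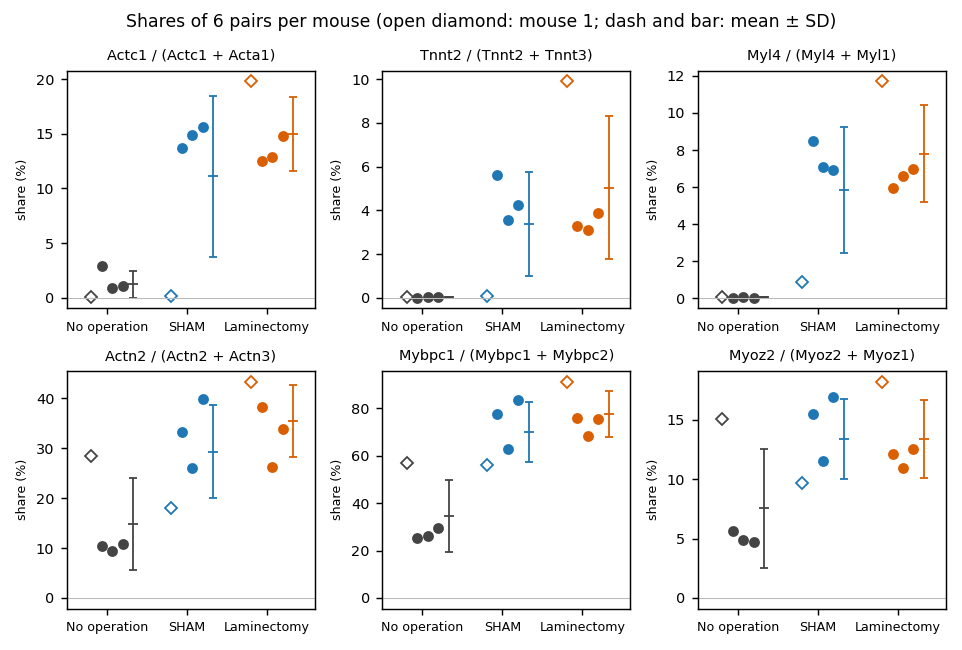
Each panel gives the share (%) of the first gene in the sum of both after division by transcript length, for 12 mice, with an open diamond for mouse 1 of each group and the group mean ± SD beside the points. In the 3 upper pairs the No operation mice reach 2.94% (*Actc1*), 0.0452% (*Tnnt2*) and 0.0736% (*Myl4*), SHAM 1 is at 0.119%, 0.0625% and 0.888%, and the other 7 surgical mice start at 12.5%, 3.1% and 5.97%; the share is a ratio of 2 genes within a mouse and does not change with library scaling.

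To describe the genes against the muscle RNA left in each piece, library sizes were set by the summed counts of 15 other muscle genes (metabolic and calcium-handling genes such as *Ckm*, *Pygm* and *Atp2a1*). On this scale the median of all genes tested moved to 4.14 in SHAM and 3.7 in Laminectomy mice, and 96.5% and 95.8% of all genes were called higher against 0.21% and 0.278% called lower. Values on this scale therefore compare a gene with those 15 genes only, weighted by their counts. *Atp2a1* and *Ckm* had the highest No operation means, 24003 and 11152 CPM, of a list sum of 52900 to 77800 CPM. Their TMM-scaled log2 fold changes were -4.5 and -4.4 in SHAM mice, against a list median of -4.08. In Laminectomy mice both were at -3.9, against a list median of -3.22. The members' medians were 0.57 and 0.73, below the median of all genes by construction of the scale. In SHAM mice 14 members were higher and 2 lower, and in Laminectomy mice 16 were higher and 3 lower. Higher in SHAM mice were *Actc1*, *Tnnt2*, *Tpm2*, *Tpm3*, *Lmod3*, *Myl4*, *Mybpc1*, *Mybph*, *Myom3*, *Actn2*, *Pdlim3*, *Des*, *Ankrd1* and *Klhl41*, and *Mylk2* and *Ankrd2* were lower. *Myl4* was at 8.09 and 8.51, *Tnnt2* at 7.25 and 7.69, and *Actc1* at 4.07 and 4.30 in SHAM and Laminectomy mice, on the log2 scale. *Acta1* was at 0.33 and 0.35 and was not called.

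Both *Ldha* and SHAM 1 bear on the values and counts on this scale. *Ldha*, 1 of the 15 genes, is made by most cells and gave 993 of the 2040 CPM that the list summed to in SHAM 1. Without *Ldha*, *Acta1* was at 0.65 and 0.59 (adjusted p = 0.377 and 0.427), and without SHAM 1 it was at 0.54 in SHAM mice (adjusted p = 0.221). Above 0 were 38 members in SHAM and 36 in Laminectomy mice without *Ldha*, and 36 and 34 without SHAM 1. Without *Ldha*, 13 members were higher and 0 lower in SHAM mice (none of the 44 called lower by edgeR), and 14 higher and 1 lower, *Ankrd2*, in Laminectomy mice. Without SHAM 1, 21 were higher and 2 lower in SHAM, and 19 higher and 4 lower in Laminectomy mice. The shares of all genes called are not given for these versions. With the full list and all mice, 96.5% and 95.8% of all genes were higher and 0.21% and 0.278% lower. Called higher under all 3 versions were 13 members in SHAM and 14 in Laminectomy mice.

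**Figure D5:**
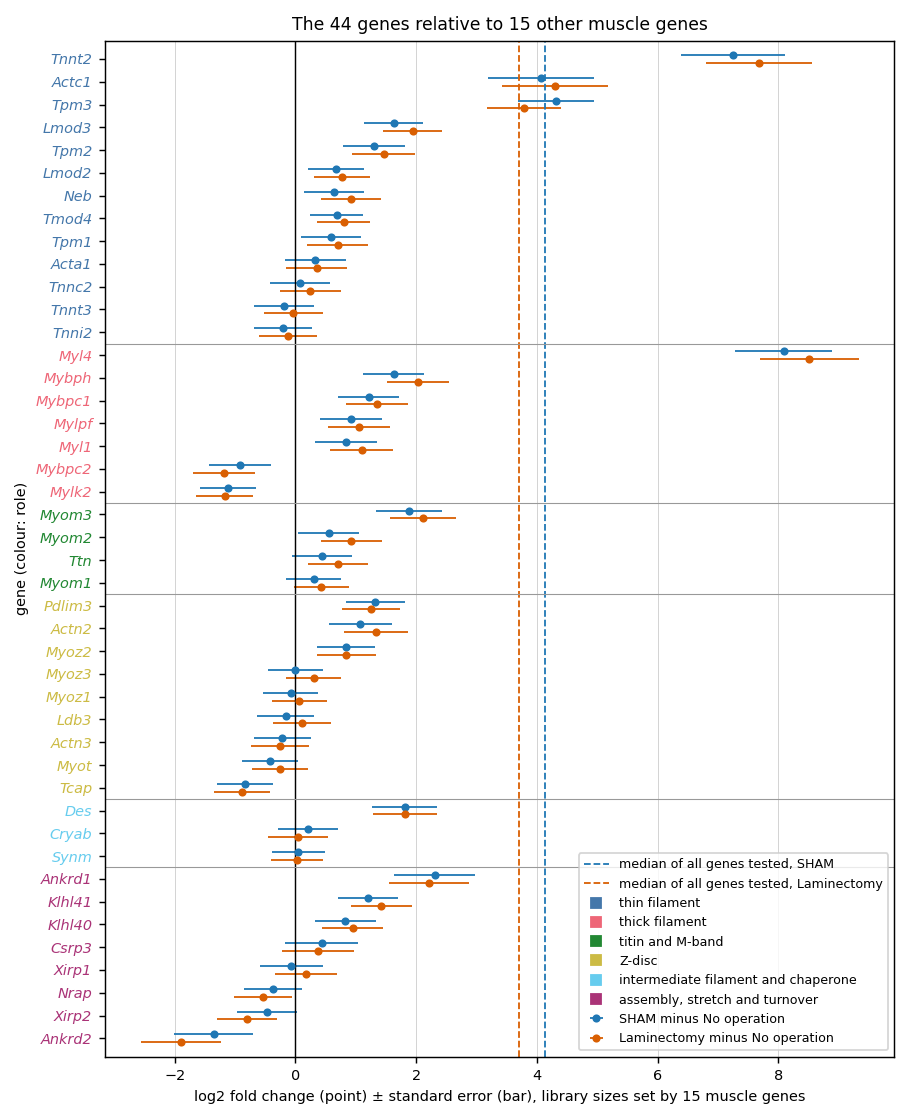
Points are log2 fold changes against No operation mice after library sizes were set by 15 other muscle genes, with standard errors as bars, SHAM in blue and Laminectomy in orange. Dashed lines mark the median of all genes tested, 4.14 and 3.7. *Myl4* and *Tnnt2* lie right of these lines, *Actc1* and *Tpm3* near them, and the other genes between -1.90 and 2.31.

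Another 45 genes of the sarcomere, mostly myosin heavy chains, obscurin and Z-disc relatives and chaperones, were counted in the same way. In SHAM mice 3 of them were higher and 35 lower (25.7% and 25.1% of all genes), and in Laminectomy mice 3 were higher and 35 lower (24.2% and 24.4%), with medians of -2.72 and -2.15, and none was called between Laminectomy and SHAM mice. On the muscle scale 25 were higher in each group (96.5% and 95.8% of all genes), and 0 were lower in SHAM and 1 in Laminectomy mice (0.21% and 0.278%). The 6 with the largest change in Laminectomy mice were the fetal heavy chains *Myh8* and *Myh3*, which rose by 6.06 and 5.81 on the log2 scale (adjusted p = 0.00135 and 0.00176), and *Myh2*, *Myh4*, *Hspb6* and *Myl2*, which fell, with log2 fold changes of -4.40, -4.22, -4.10 and -3.81 (adjusted p = 0.000635, 0.000155, 0.000193 and 0.00699). In SHAM 1, *Myh8* was at 1.29 CPM and *Myh3* at 1.35 CPM, compared with No operation means of 10 and 15.2 CPM.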

How the data were processed

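RNA was sequenced from 12 mice, 4 per group, with a stranded polyA kit on an Illumina HiSeq 2000 (paired reads of 100 bases). Per the labels and the submitters' processing notes, reads were aligned with STAR 2.6.1b to GRCm38 (mm10), counted with featureCounts 2.0.1 and tested with DESeq2 1.30.1, and per the study's methods counting used default settings, which leave strand out. How reads on exons shared with a gene of the opposite strand, as in 14 of the 44 genes, entered these counts is not known from the sources used here. The authors deposited a table of 18996 genes whose values behave like expected counts, since 10.22% are not whole numbers, with no normalization, and the step that made fractions is not given in the sources used here. Values were rounded, which changed none by more than 0.5. The design had assumed whole counts. The study's text gives fewer mice per group without naming them, so all 4 were used.

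Genes were filtered with edgeR's filterByExpr (4231 removed, 14765 left), library sizes scaled by TMM (factors 0.849 to 1.13), and all 12 mice fitted together by edgeR 4.0.16 in R 4.3.3 (glmQLFit, then glmQLFTest) with Benjamini-Hochberg adjustment over all genes. The common dispersion was 0.0799, a biological coefficient of variation of 28.3%. Standard errors were obtained from the fold change and the F statistic (size over the root of F). CPM are counts per 1000000 of the effective library size. Nothing in the labels says how mice of a group differ beyond being separate samples, so p-values measure the spread between these samples. Replicates of a group differed by more than counting noise (chi-square per gene of at least 20.7). Alternatives were DESeq2 1.42.0, other size factors, filters and thresholds, only the groups compared, the replicate number as a block, and each mouse left out. Adding a pair of mice to leave out, a muscle list without *Ldha* and principal transcript lengths was decided after seeing the data. The test was tried on simulated counts.

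The 44 members and all gene lists were chosen with earlier results of these data known. Per-mouse values are given, by rule, for the genes of 6 isoform pairs, for the member with the highest mean CPM and those with the highest and lowest fold change in each role, for members called higher, and for the 5 with the smallest p between Laminectomy and SHAM. Gene positions and transcript lengths are from GENCODE M21 (GRCm38), and promoters are from RefSeq (GRCm38.p6).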

Additional observations from a re-analysis of the deposited data

Results flagged for a closer look

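In each group of 4 mice, the gap of the highest or lowest mouse to its nearest neighbour was divided by the group's range of log2 CPM, and values above Dixon's 95% critical value for 4 samples are listed. Of 132 gene and group combinations 32 passed, where chance gives about 1 in 20, and genes of a group are not independent since they come from the same mice.

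SHAM 1 was the lowest of its group for 15 genes: *Pdlim3* (0.986), *Des* (0.922), *Tnnt2* (0.917), *Tnnt3* (0.911), *Myl4* (0.905), *Actc1* (0.901), *Mybph* (0.896), *Ttn* (0.886), *Tnnc2* (0.88), *Tmod4* (0.878), *Tnni2* (0.873), *Neb* (0.854), *Klhl40* (0.851), *Lmod3* (0.841) and *Myoz1* (0.839).

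Laminectomy 1 was the lowest of its group for 14 genes: *Tnnt3* (0.991), *Myoz1* (0.96), *Tcap* (0.917), *Pdlim3* (0.915), *Tnni2* (0.907), *Myot* (0.89), *Ttn* (0.88), *Ldb3* (0.876), *Myom1* (0.873), *Tmod4* (0.849), *Mybpc2* (0.843), *Actn3* (0.839), *Xirp2* (0.833) and *Myoz2* (0.83). The embryonic-type genes *Tnnt2*, *Myl4* and *Actc1* were not among them.

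In the No operation group, *Xirp1* stood apart in mouse 1, the highest (0.854), *Synm* in mouse 2, the lowest (0.847), and *Mylk2* in mouse 4, the highest (0.843).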

How the results depend on the processing

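The counts of members called kept within 1.5 times of the main count under DESeq2, RLE, total counts, no filter, both fold thresholds, the fit of only the groups compared, and each mouse left out. Leaving out 1 mouse gave 2 higher and 38 to 39 lower in SHAM, 2 to 3 higher and 36 to 39 lower in Laminectomy mice, and 0 between them. At least 10 counts in every mouse left 1 higher in each, because *Tnnt2* had 6 reads in SHAM 1 and was not tested. Leaving out SHAM 1 and No operation 1 together gave 3 higher and 38 lower in both. Total counts moved the median of all genes to 0.25 and 0.33. DESeq2 gave no adjusted p for *Ankrd1*. Over all genes, Laminectomy against SHAM had 0 calls by edgeR, 696 by DESeq2 and 251 with the muscle list.

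Setting library sizes by the muscle list gave 14 higher and 2 lower in SHAM and 16 higher and 3 lower in Laminectomy mice, by construction of the scale, and without *Ldha* the lower counts were 0 and 1. It changed the sign of 26 of the 44 members in the SHAM and 30 in the Laminectomy comparison, 34 and 32 without *Ldha*, and 32 and 30 without SHAM 1. Among the genes named by the rule, those in the SHAM comparison were *Acta1* (0.33), *Tpm1* (0.59), *Myl1* (0.84), *Mylpf* (0.92), *Mybpc1* (1.21), *Ttn* (0.44), *Myom1* (0.30), *Myom3* (1.88), *Actn2* (1.07), *Myoz2* (0.84), *Pdlim3* (1.32), *Des* (1.81), *Synm* (0.046) and *Ankrd1* (2.31), and those in the Laminectomy comparison were *Acta1* (0.35), *Tpm1* (0.70), *Myl1* (1.10), *Mylpf* (1.05), *Mybpc1* (1.36), *Ttn* (0.70), *Myom1* (0.43), *Myom3* (2.12), *Actn2* (1.33), *Myoz1* (0.059), *Myoz2* (0.84), *Myoz3* (0.30), *Ldb3* (0.11), *Pdlim3* (1.25), *Des* (1.81), *Synm* (0.027) and *Ankrd1* (2.21). The other 12 and 13 ran from 0.078 to 1.63 and from 0.044 to 2.03. Leaving out 1 mouse, *Actc1* in SHAM mice ran from -0.10 to 0.99 and was below 0 without No operation 1 (-0.048) or SHAM 4, in Laminectomy mice it ran from 0.37 to 1.41, and *Ankrd1* ran from -1.79 to 0.80 in SHAM and from -1.42 to 1.16 in Laminectomy mice and was above 0 without No operation 1. The cause was not tested.

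With the replicate number as a block, 2 were higher and 38 lower in SHAM, 2 higher and 37 lower in Laminectomy mice, and 0 between them (4 with an unadjusted p below 0.05). Of 12 pairs of mice sharing a number, 7 had correlated deviations above 0.1 (from -0.23 to 0.35). The labels do not say that a number marks a shared litter, batch or day, so the numbers were not taken to pair mice. Low reads limit *Tnnt2* and *Actc1* in SHAM 1.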

Other observations

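The slow-fibre troponins are not among the 44 genes and were picked once their values had been seen. On the TMM scale none was called in either surgical group by edgeR. *Tnnt1* had log2 fold changes of -1.29 in SHAM (adjusted p = 0.0688) and -0.62 in Laminectomy mice (adjusted p = 0.369). *Tnnc1* was at -1.31 (adjusted p = 0.0758) and -0.61 (adjusted p = 0.394), and *Tnni1* at -0.47 (adjusted p = 0.557) and 0.15 (adjusted p = 0.855). On the scale of the 15 muscle genes, where 96.5% and 95.8% of all genes were higher, all 3 were called higher in SHAM and Laminectomy mice, *Tnnt1* at 2.45 and 2.84, *Tnnc1* at 2.43 and 2.94 and *Tnni1* at 3.24 and 3.65. In SHAM 1, *Tnni1* was at 5.28 CPM and *Tnnt1* at 14 CPM, compared with group means of 93.6 and 111 CPM in SHAM mice. The difference between these fold changes and those of the fast forms *Tnnt3*, *Tnnc2* and *Tnni2* was not tested.

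Among 12 genes of regenerating muscle, 7 were higher in SHAM and 8 in Laminectomy mice (25.7% and 24.2% of all genes), and none was lower (25.1% and 24.4%). On the muscle scale all 12 were higher in both, where 96.5% and 95.8% of all genes were higher. *Myh3* and *Myh8* are also counted among the 45 other sarcomere genes. The fusion gene *Mymk* rose by 7.29 on the log2 scale in Laminectomy mice (adjusted p = 0.00036), while the satellite cell gene *Pax7* was at 0.04 (adjusted p = 0.954). In SHAM 1, *Mymk* was at 0.112 CPM.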
